A study of Mus musculus with 22 samples.

Results

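The nuclear genes that encode proteins of the mitochondrial ribosome were followed at the levels of mRNA and of ribosome footprints in cultured mouse neural stem cells (NSCs). They were taken as every gene whose symbol reads Mrpl or Mrps and then a digit, which gave 77 of the 23081 genes in the footprint tables, and 75 of these could be joined by Ensembl identifier to the RNA-Seq files. By the usual assignment of the proteins, 49 belong to the large subunit and 26 to the small subunit, 46 have a bacterial counterpart and 29 are specific to mitochondria. Mrps36, whose product is now counted with the α-ketoglutarate dehydrogenase complex, and the pseudogene Mrps36-ps1 were put in neither subunit.

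The study asked how the Musashi RNA binding proteins Msi1 and Msi2 affect the mRNAs and translation of NSCs that were grown from embryonic brain of day E12.5 or E13.5. KH2 cells carry the m2rTTA transactivator in the Rosa26 locus and no Msi cDNA, and tetO-Msi1 and tetO-Msi2 cells carry m2rTTA and a Msi1 or Msi2 cDNA in the Col1A1 locus, which doxycycline (Dox) turns on. C1 and C4 cells are both floxed at Msi1 and Msi2, and only C4 cells carry the CreER recombinase that 4-hydroxytamoxifen (4-OHT) activates. At E12.5 these 5 lines were sequenced with and without treatment, which was Dox at 1 µg/ml for 72 hours in the first 3 lines (called inducible here) and 4-OHT for 48 hours in C1 and C4 (called floxed here). At E13.5 there were RNA-Seq libraries of untreated KH2 cells and of tetO-Msi1 cells in both states, and footprints were sequenced at E12.5 in all lines but tetO-Msi2. Every condition was 1 library of 1 line, except that untreated E13.5 tetO-Msi1 cells had 2 technical replicates, which were summed. The repeats of each test below are therefore lines or stages. The p-values set a change against how far these disagree, mostly as a spread shared across genes and less as that of the single gene. For mRNA with Dox in tetO-Msi1 cells and for footprints with Dox, only the shared spread was used.

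Mitochondrial ribosomes translate the mRNAs of mitochondrial DNA, all of which encode subunits of the respiratory chain and of ATP synthase. Their rRNAs are made inside the organelle, while every ribosomal protein is encoded in the nucleus, translated by cytosolic ribosomes and imported. The footprints described here are those of cytosolic ribosomes on the mRNAs of these proteins, so they measure the making of the parts and not the activity of the finished mitochondrial ribosome.

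The promoters of these genes shared features that the choice by name did not use. RefSeq promoters of GRCm38.p6, which run from 250 bases before to 50 bases after the start, were matched by symbol for 67 of the 77 genes, and the median number of CpG dinucleotides in them was 21, against 7 over all 27025 promoters. The core site of ETS factors such as GABP (CCGGAAG on either strand) was in 23 (34.3%) of them, against 9.12% of all promoters. The core of NRF1, a regulator of nuclear genes for mitochondrial proteins (GCATGCGC), was in 8 (11.9%) against 2.80%, and the core of YY1 (ATGGCGG) was in 13 (19.4%) against 4.19%. At least 1 of the 3 was in 34 (50.7%), against 14.5% of all promoters, and a TATAAA box was in 4 (5.97%) against 14.2%. The same searches found at least 1 of the 3 cores in 52.5% of 61 promoters of cytosolic ribosomal protein genes and in 43.9% of 66 of the nuclear-encoded respiratory chain, so the feature was not particular to the mitochondrial ribosome. A match of letters is a description and does not show that a factor binds.

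Promoters are shown for the 3 genes with the largest rises and the 1 with the largest fall between cell lines described below. In each, the capitals mark the matches to the NRF1 and ETS cores on either strand, and the window is given 5′ to 3′ on the strand of the gene. The promoter of Mrps18b (chr17:35916391-35916690, minus strand) held the NRF1 core at bases 28 and 279 and the ETS core at base 294 on the other strand, counted from 1 at the 5′ end. That of Mrps26 (chr2:130563507-130563806, plus strand) held the ETS core at base 237 on the other strand, and those of Mrps6 (chr16:92058086-92058385, plus strand) and Mrpl45 (chr11:97315466-97315765, plus strand) held none of the 3 cores.
Mrps6: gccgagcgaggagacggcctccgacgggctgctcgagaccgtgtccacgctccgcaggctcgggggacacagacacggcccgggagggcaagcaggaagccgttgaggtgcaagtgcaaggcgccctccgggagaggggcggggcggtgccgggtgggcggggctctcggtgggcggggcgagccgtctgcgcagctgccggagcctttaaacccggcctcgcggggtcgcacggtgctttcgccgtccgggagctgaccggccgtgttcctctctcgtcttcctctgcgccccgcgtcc
Mrps18b: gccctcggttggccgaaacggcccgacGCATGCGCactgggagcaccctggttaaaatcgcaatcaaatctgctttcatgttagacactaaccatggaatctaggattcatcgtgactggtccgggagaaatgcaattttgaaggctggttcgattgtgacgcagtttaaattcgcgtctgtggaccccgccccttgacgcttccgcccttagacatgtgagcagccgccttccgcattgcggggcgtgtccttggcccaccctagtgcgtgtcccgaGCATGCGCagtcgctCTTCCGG
Mrps26: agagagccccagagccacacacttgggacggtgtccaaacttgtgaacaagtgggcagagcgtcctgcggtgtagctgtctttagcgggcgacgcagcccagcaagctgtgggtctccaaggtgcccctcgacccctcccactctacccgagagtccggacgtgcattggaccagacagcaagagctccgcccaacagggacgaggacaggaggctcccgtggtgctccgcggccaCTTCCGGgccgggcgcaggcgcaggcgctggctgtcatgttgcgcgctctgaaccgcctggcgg
Mrpl45: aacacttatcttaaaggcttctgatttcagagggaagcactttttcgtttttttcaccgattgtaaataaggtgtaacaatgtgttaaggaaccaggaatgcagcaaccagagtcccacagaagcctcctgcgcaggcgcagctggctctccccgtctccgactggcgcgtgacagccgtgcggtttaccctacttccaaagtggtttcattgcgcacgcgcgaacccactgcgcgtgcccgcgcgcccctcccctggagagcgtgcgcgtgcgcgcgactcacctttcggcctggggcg

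The genes were spread over 17 of the chromosomes, and many sat close to other genes in the mm9 annotation. A protein-coding gene on the other strand began within the 1 kb upstream of the start of 16 of the 77 (20.8%), against 7.15% of all 22380 protein-coding genes. Among these neighbours were Sars2, a mitochondrial seryl-tRNA synthetase, beside Mrps12, and Mitd1 beside Mrpl30. In all, 19 of the 77 overlapped a gene on the other strand and 6 overlapped one on the same strand, where short reads of both genes can be hard to tell apart. Mrps6 is one of the 6, since its gene (chr16:92058515-92112472 in mm9, plus strand) spans Slc5a3, a myo-inositol transporter gene.

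Of the 77, Mrps36-ps1 had 0 footprints in every library, and its mRNA and that of Mrps33 were not analysed here. Mrpl23 and Mrps36 were listed at 0 in every RNA-Seq library although they had 947 and 1224 footprints in all, so that a count of 0 there is not read as absence, and 73 genes were tested for mRNA. Gene counts summed to 7889966 to 60791605 reads in the RNA-Seq libraries and to 657288 to 6381242 in the footprint libraries. The genes took 0.311 to 0.399% of the RNA-Seq counts in inducible lines and 0.437 to 0.446% in floxed lines. They took 0.154 to 0.496% of the footprints, except in untreated KH2 cells, where 10 genes held 77.6% of all footprints and these took 0.0529%. Gene counts made up 14.9 to 15.8% of the reads behind the authors' RPKM (reads per kilobase of exon, scaled to the reads of the library) in the E12.5 inducible libraries, and 30.0 to 34.1% where this share could be computed in E13.5 and floxed libraries. Libraries were therefore compared as CPM (counts scaled to library size after TMM normalization), and RPKM served to compare genes within a library.

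The targeted genes followed the labels with 1 exception. Msi1 mRNA was 68.2 CPM in untreated and 371 CPM in Dox-treated tetO-Msi1 cells at E12.5, and 96.1 and 370 CPM at E13.5, while Msi2 mRNA was 17.1 and 92.2 CPM in tetO-Msi2 cells. In C4 cells, the library labelled 4-OHT had 1.52 CPM of Msi2 mRNA against 13.8 CPM without it. Its Msi1 mRNA was 14.9 CPM against 15.6 CPM, and its Msi1 footprints were 9.30 against 21.7 CPM, so the counts over all listed Msi1 exons do not show a loss of Msi1 mRNA, and which exon the floxed allele removes was not used here. Of the marker lists, that of neural stem cells, the labelled cell type, had the highest sums, at 9828 to 12581 CPM in the untreated libraries. Astrocyte markers came next, at 855 to 1511 CPM. Neuron markers summed to 37.8 to 55.02 CPM and microglia markers to at most 0.140 CPM, with Cx3cr1 at 0 throughout.

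In untreated cells the mRNAs of the mitochondrial ribosome were abundant and close to each other in level. Their median mRNA level was higher than that of 77.2 to 84.8% of all genes with reads in the 13 libraries, the lowest of these shares being in Dox-treated tetO-Msi1 cells of E12.5. The SD of their log2 mRNA levels was 0.73 to 0.82 among genes that had over 5 reads in both assays, against 1.75 to 2.20 over all such genes. In untreated C1 cells the lowest RPKM was 15.2, the median 40.4 and the highest 763, and in untreated KH2 cells of E12.5 they were 1.03, 17.0 and 48.5. Large subunit genes had a median level of 25.2 RPKM and small subunit genes 21.5 RPKM, as geometric means over the untreated E12.5 libraries, and these class medians are given with no test.

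**Figure D1:**
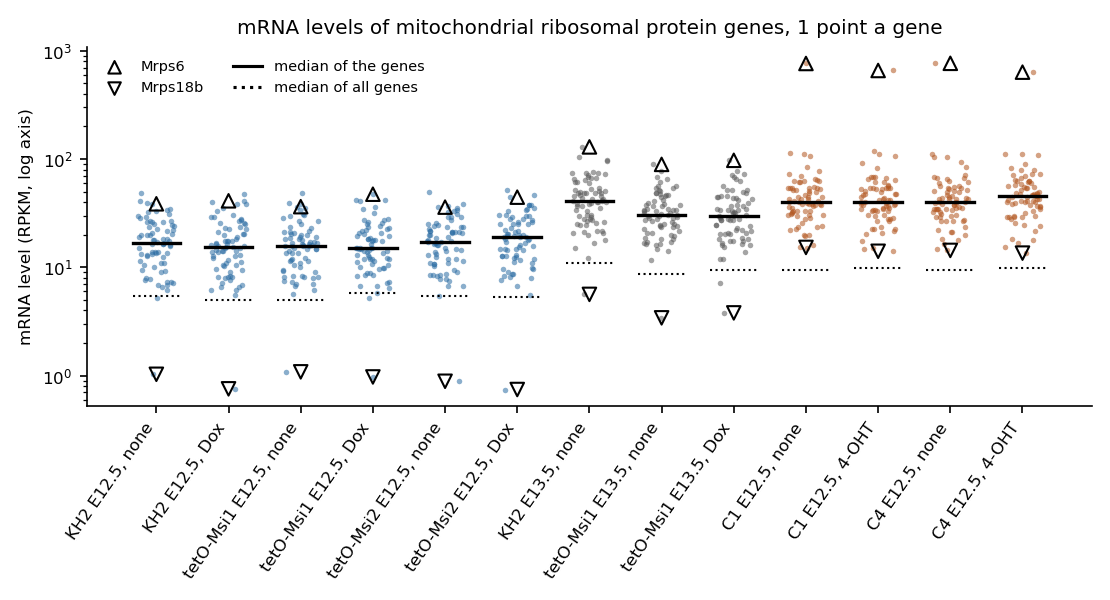
mRNA level in RPKM (log axis) of each mitochondrial ribosomal protein gene in each RNA-Seq library, with the median of these genes as a solid line and that of all genes as a dotted line. Triangles mark Mrps6, at 36.0 to 38.6 RPKM in untreated E12.5 inducible lines and 763 to 765 RPKM in untreated floxed lines, and Mrps18b, which is the lowest gene in all inducible libraries; the heights of the 3 colours also differ by how much of each library's reads the gene counts make up.

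By the mean over lines, the order of the mRNA levels was led by Mrps6, a small subunit protein, with a geometric mean of 124 RPKM over the untreated E12.5 libraries, then Mrpl30 (56.6 RPKM), Mrpl52 (48.1 RPKM), Mrpl17 (47.6 RPKM) and Mrpl13 (46.9 RPKM), all of the large subunit. The lead of Mrps6 came from the floxed lines, since in each of the 3 inducible lines Mrpl30 was highest (48.4 to 49.8 RPKM) and Mrps6 was at 36.0 to 38.6 RPKM. Apart from Mrps6, these neighbours in rank were closer to each other than 1 gene was between libraries. Mrpl17 alone ranged from 67.2 CPM in tetO-Msi1 to 142 CPM in C4 cells, both untreated and of E12.5. At the other end were Mrps5 (11.2 RPKM), Mrpl47 (11.02 RPKM), Mrpl1 (9.71 RPKM), Mrps10 (8.80 RPKM) and Mrps18b (2.93 RPKM). Mrpl12, a protein of the stalk that also binds the mitochondrial RNA polymerase, ranked 10 at 40.1 RPKM. Mrps12, the decoding centre protein whose bacterial counterpart is the streptomycin target, ranked 41 at 21.8 RPKM.

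Among the 3 mammalian homologues of bacterial S18, mRNA levels were far apart. Mrps18a, which sits in the large subunit, was at 48.9 to 55.9 CPM in the 3 untreated E12.5 inducible lines and 75.6 to 79.3 CPM in the 2 floxed lines. Mrps18c, the small subunit protein closest to the bacterial one, was at 11.4 to 15.1 and 15.5 to 17.4 CPM. Mrps18b, specific to mitochondria, was at 1.92 to 2.33 and 14.7 to 15.3 CPM, so its inducible and floxed values did not overlap while those of Mrps18c nearly met.

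Footprints per coding length gave a similar but not identical order. Mrps6 led at 55.8 RPKM (geometric mean over the 4 untreated libraries), before Mrps33 (29.4 RPKM), Mrpl33 (29.0 RPKM), Mrpl20 (21.6 RPKM) and Mrpl52 (20.9 RPKM). That lead too came from the floxed lines, where Mrps6 had 550 and 187 RPKM, against 9.77 RPKM in KH2 and 9.61 RPKM in tetO-Msi1 cells. In these cells Mrps33 had 15.6 and 19.6 RPKM, and the highest were Mrps10 in KH2 (17.9 RPKM) and Mrpl33 in tetO-Msi1 cells (26.9 RPKM). The lowest were Mrpl1 (3.87 RPKM), Mrps18b (3.22 RPKM), Mrps2 (3.05 RPKM), Mrpl47 (2.96 RPKM) and Mrpl19 (2.71 RPKM). Across the genes of 1 library, Pearson's r of log2 mRNA and log2 footprint levels was 0.48 in KH2, 0.51 in tetO-Msi1, 0.71 in C1 and 0.72 in C4 cells (n = 68, 71, 73 and 73 genes). By rank the lines were closer, with Spearman's correlation at 0.48 in KH2, 0.52 in tetO-Msi1, 0.56 in C1 and 0.45 in C4 cells. Genes of 1 library are not independent replicates and r falls with depth, so these values describe the libraries only. For Mrps36 the footprint level was 12.46 RPKM and for Mrpl23, a large subunit protein at the exit tunnel, 14.3 RPKM, which places both among the 15 highest although their mRNA was listed at 0.

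Translational efficiency (TE), the footprint RPKM divided by the mRNA RPKM, was near that of other genes. The median TE of these genes stood at log2 −0.13 relative to the median of all genes in untreated KH2 cells, 0.10 in tetO-Msi1, 0.34 in C1 and 0.18 in C4 cells. Of 68 genes with over 5 reads in every untreated library of both assays, 20 (29.4%) lay above the median TE of all genes in all 4 lines and 6 (8.82%) below it, against 24.9 and 24.6% of all 7156 genes. For cytosolic ribosomal protein genes the shares were 57.1 and 0% of 42. Restricting all genes to those whose exons are the same in both assays, an alternative chosen after seeing the data, left the medians at −0.09, 0.12, 0.32 and 0.22.

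The highest TE belonged to Mrps10, a small subunit protein, at a mean log2 of 1.98 above the median of all genes, and then to Mrps5 (1.44), Mrpl21 (1.35), Mrpl27 (1.34) and Mrpl22 (1.31). For Mrps10 the footprints were counted over 206 nt and the mRNA over 283 nt of exons that are not the same, and its value went from 3.66 in KH2 to 0.80 in C1 cells. Mrps5, a small subunit protein, was more even, at 1.09 to 1.72 in the 4 lines. The lowest TE belonged to Mrpl30 (−1.67), followed by Mrps24 (−0.84), Mrpl37 (−0.83), Mrps15 (−0.70) and Mrpl19 (−0.59). Mrpl30 thus had the second highest mRNA level of all and rank 59 in footprints, with a TE of −1.77 in KH2, −2.83 in tetO-Msi1, −0.53 in C1 and −1.53 in C4 cells, below the median of all genes each time.

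The first comparison asked whether Msi1 induction changed these mRNAs. In tetO-Msi1 cells with both stages as repeats, 0 of the 73 genes passed edgeR's quasi-likelihood test at an adjusted p of 0.05, where 3.6% of all 11938 genes did. That share was not stable, since 430 genes were called here, 103 by DESeq2 and 0 without the stage as a block. A fit of all RNA-Seq libraries, with terms for line, stage, Dox and 4-OHT (called additive here), shares the Dox term among all inducible lines and called 50. Leaving 1 of the 4 libraries out of that additive fit gave 0 to 4. In the main fit, 5 of the 73 genes had an unadjusted p under 0.05 (Mrpl1, Mrpl3, Mrpl20, Mrpl32 and Mrpl36), as did 1752 of all 11938 genes. DESeq2 called 0 of the 73, with 1 at that unadjusted limit, where 909 of all genes stood. The lowest adjusted p was that of Mrpl1, a protein of the L1 stalk, whose log2 change was −0.51 ± 0.18 (SE; edgeR adjusted p = 0.0918). It was at 29.2 CPM without and 25.03 CPM with Dox at E12.5, and at 27.0 and 15.9997 CPM at E13.5, so that only the later pair differed by much. Of the other lists, Cox6b2 of cytochrome c oxidase rose (log2 0.83) and the cytosolic ribosomal protein gene Rpl22l1 fell by 0.67 on the log2 scale. The astrocyte marker Gfap (−0.77) and the neuron marker Snap25 (−1.49) also fell, and their part was not tested. In the same fit 0 of 71 tested genes for mitochondrial translation factors, mitoribosome assembly, mitochondrial aminoacyl-tRNA synthetases, mitochondrial DNA upkeep and other mitoribosomal proteins passed.

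Dox treatment with the 3 inducible lines of E12.5 as repeats, of which all but KH2 also induce a Msi transgene, gave 0 calls among the 73 genes, where 0.451% of 11969 genes were called by edgeR. Dox alone was seen in the single KH2 pair only. Unadjusted p-values under 0.05 were found for 5 of the 73 by edgeR (1653 of all 11969 genes) and for 5 by DESeq2 (869 of all genes). DESeq2 called 0 of the 54 genes it gave an adjusted p. Mrpl20, a large subunit protein with a bacterial counterpart, had the lowest adjusted p (0.158 by edgeR), with a log2 change of 0.36 ± 0.11 (SE). It went from 46.6 to 48.3 CPM in KH2, from 36.1 to 49.8 CPM in tetO-Msi1 and from 37.8 to 55.5 CPM in tetO-Msi2 cells, higher with Dox in all 3 lines and by most in those with a transgene. It passed where no filter on low counts was set (edgeR adjusted p = 0.0233). It also passed in the additive fit of all RNA-Seq libraries when the KH2 library with Dox was left out (edgeR adjusted p = 0.0350). The adjusted p of Mrps6 was 0.180 by edgeR, with 63.8 and 70.0 CPM in KH2, 61.2 and 79.2 CPM in tetO-Msi1, and 61.0 and 73.7 CPM in tetO-Msi2 cells.

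Within single pairs of libraries, changes are given as log2 ratios of RPKM relative to the median of all genes, with no test. Dox left the median of these genes at −0.03 in KH2, 0.00 in tetO-Msi1 and 0.07 in tetO-Msi2 cells at E12.5, and at −0.14 in the tetO-Msi1 cells of the later stage, where 56 of 73 were lower. That last value was −0.06 when it was not set relative to the median of all genes. None of the genes differed 2-fold in any pair, and 0 of 72, 1 of 73, 2 of 72 and 2 of 73 differed at least 1.5-fold, against 0.974, 3.39, 3.02 and 7.49% of all genes. Of the cytosolic ribosomal protein genes in tetO-Msi1 cells, all 41 were lower at E12.5 with a median of −0.25, and 40 of 46 were lower at E13.5 with a median of −0.31.

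**Figure D2:**
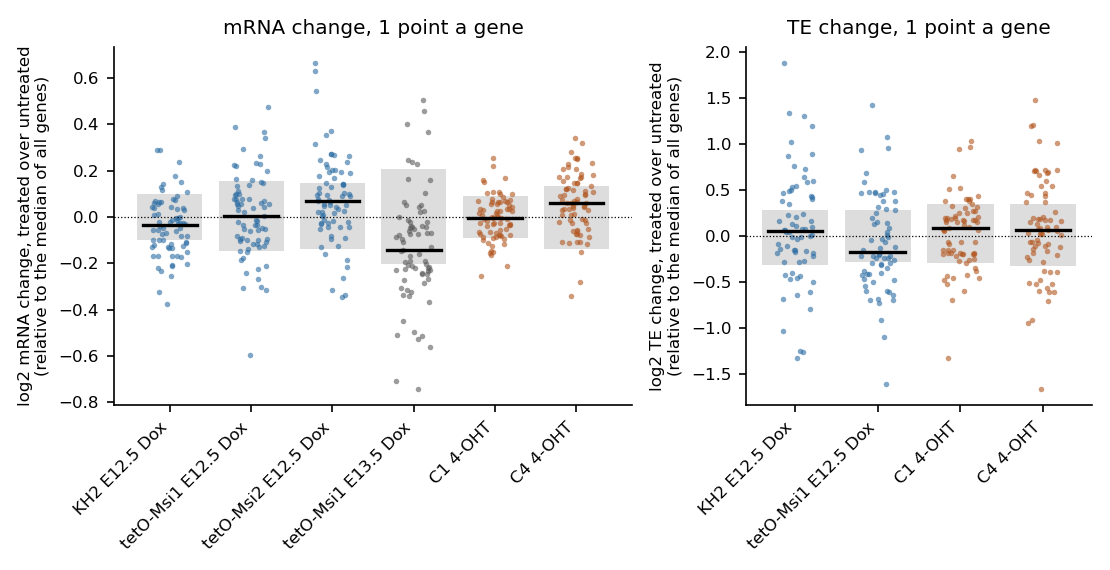
Log2 change with treatment of the mRNA (left, 6 pairs of libraries) and of TE (right, 4 pairs), relative to the median of all genes, with 1 point for each mitochondrial ribosomal protein gene. Black lines are the medians of these genes, from −0.14 to 0.07 for mRNA and from −0.17 to 0.09 for TE, and grey boxes hold the middle 50% of all genes, inside which every median falls.

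The pairs also differed in which genes stood at the ends. In KH2 cells, which carry no transgene, Mrpl54 was lowest at −0.38 and Mrpl33 highest at 0.29. In tetO-Msi1 cells of E12.5, Mrps23 was at −0.60 with only 24 reads after Dox, Mrpl51 at −0.32 and Mrps27 at −0.31, and Mrpl20 (0.48), Mrps6 (0.39) and Mrpl44 (0.37) were highest. At E13.5 the same treatment left Mrpl1 at −0.74, Mrpl3 at −0.71 and Mrpl32 at −0.56, with Mrpl53 (0.51), Mrpl36 (0.46) and Mrpl43 (0.40) at the other end. In tetO-Msi2 cells Mrpl55 (0.66), Mrps14 (0.63) and Mrpl20 (0.55) were highest, and Mrpl27 (−0.35), Mrps27 (−0.34) and Mrps23 (−0.31) lowest. The 95% counting interval left out 0 for 17 genes in KH2, 17 in tetO-Msi1 and 29 in tetO-Msi2 cells at the earlier stage and for 52 in tetO-Msi1 cells of E13.5. These intervals cover counting error only, and 1 pair has no spread between repeats. They also narrow with depth, and gene counts were 7889966 in Dox-treated tetO-Msi1 cells of E12.5 but 50388807 in those of E13.5. The same count was not made over all genes, so these numbers do not compare the pairs in size of effect. At E12.5 the change of tetO-Msi1 minus that of KH2 cells had a median of 0.05 over these genes and 0.00 over all genes.

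With 4-OHT, C1 and C4 cells together gave 1 call among the 73 mRNAs, which is 1.37% of them where 5.5% of 11626 genes were called. Mrps6 fell by 0.28 on the log2 scale (SE 0.061, edgeR adjusted p = 0.0346), a factor of 1.21. It went from 598 to 517 CPM in C1 cells and from 617 to 488 CPM in the C4 cells labelled 4-OHT, lower with 4-OHT in both lines, including the line with no CreER. The call was lost without the line as a block (edgeR adjusted p = 0.342), and it stood in DESeq2 (adjusted p = 0.0167). It was also lost in the additive fit of all RNA-Seq libraries. Fits that left out 1 of the 4 libraries used that model, so they do not show what 1 library does to the call. Ppargc1a, a coactivator of genes for mitochondrial proteins, rose (log2 0.89), and it was the only gene to pass of 71 tested in the 5 lists of mitochondrial gene expression. Of 4 astrocyte markers 1 fell, and the part of other cells in these values was not tested.

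The medians of the mRNAs in the single 4-OHT pairs were 0.00 in C1 and 0.06 in C4 cells, and 0 of 73 genes differed at least 1.5-fold in either, against 1.43 and 5.80% of all genes. In C1 cells the ends were Mrps18a (−0.25), Mrps6 (−0.21) and Mrpl27 (−0.16), and Mrps23 (0.26), Mrpl42 (0.22) and Mrpl18 (0.17). For C4 they were Mrps6 (−0.34), Mrpl52 (−0.28) and Mrps18b (−0.15), and Mrpl42 (0.34), Mrpl14 (0.32) and Mrpl13 (0.28). The change of C4 minus that of C1 cells had a median of 0.09, against 0.00 over all genes, with 1 pair of libraries each.

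No change in the footprints of these genes passed the test with either treatment. With Dox in KH2 and tetO-Msi1 cells, 0 of 71 genes were called by edgeR (0.566% of 7242 genes were). At an unadjusted p under 0.05 there was 1 (Mrps10), where 385 of the 7242 stood, and DESeq2 gave 0 at either limit. With 4-OHT in C1 and C4 cells, 0 of 76 were called (1.27% of 9239). At an unadjusted p under 0.05 there were 2 (Mrpl27 and Mrpl12) by edgeR, where 913 of the 9239 stood, and 0 by DESeq2. The footprints of all 77 genes summed to only 1648 to 5588 reads a library in the inducible lines, and to 8096 to 30757 in the floxed lines, so a p that missed the threshold does not show that these footprints stayed the same. In the footprint fits Atp5g1, a subunit of ATP synthase, rose with Dox (log2 1.12) and the cytosolic ribosomal protein gene Rps7 fell by 0.83 on the log2 scale.

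The TE of these genes, tested as the interaction of assay and treatment, gave 0 calls of 68 with Dox, where 0.0155% of 6442 genes (1 gene) passed edgeR's test. Unadjusted p-values under 0.05 were found for 1 (Mrps10) by edgeR, against 230 of all 6442 genes, and for 0 by DESeq2, which called 0. With 4-OHT there were 0 calls of 73, and 0% of 8255 genes passed. At an unadjusted p under 0.05 there were 2 (Mrpl27 and Mrpl30) by edgeR, against 744 of the 8255. DESeq2 gave 0 at that limit and called 0. The tetO-Msi1 cells with Dox and the C4 cells labelled 4-OHT can only be set against their controls as differences of single pairs. The median TE change of tetO-Msi1 minus KH2 cells was −0.17, against −0.03 over all genes, and that of C4 minus C1 cells was −0.09, against 0.01.

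The study defined a translational target with RPKM as deposited: more than 5 reads in each of the 4 libraries, TE at least 3-fold up or down, and mRNA that moved by less than 1.5-fold. By these limits 1 of 68 genes was called in KH2 cells (1.1% of all genes were), 0 of 68 in tetO-Msi1 cells (1.29%), 28 of 73 in C1 cells (38.5%) and 1 of 73 in the C4 cells labelled 4-OHT (2.6%). All 28 in C1 cells were lower, and their count was 0 once the shift of all genes in that pair, −1.46 on the log2 scale, was taken off. The gene in KH2 cells was Mrpl47, a large subunit protein at the exit tunnel, with 7 footprints before and 29 after Dox. The gene in C4 cells was Mrpl48, a large subunit protein, with 82 footprints in the untreated library and 22 in the treated one. Its TE was lower by 1.66 on the log2 scale relative to all genes (interval −2.35 to −0.96), and in C1 cells it had 21.5 and 23.0 CPM of footprints, so the lines differed by −1.86 (−2.68 to −1.05) with 1 pair each.

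Other single TE changes were of opposite sign in different lines. Mrpl1 was at 1.20 in C4 (66 and 121 footprints) and −0.60 in C1 cells (369 and 79 footprints, at lower depth with 4-OHT). Mrps30, which despite its name belongs to the large subunit, was at 1.34 in KH2 cells with Dox (21 and 52 footprints) and −0.61 in C4 cells. The remaining ends were Mrps10 (−1.24), Mrps18c (−0.79), Mrps6 (−0.61), Mrps31 (0.90) and Mrpl24 (0.77) in KH2, and Mrpl24 (−0.73), Mrpl20 (−0.54), Mrpl22 (−0.48), Mrpl35 (0.94), Mrpl17 (0.51) and Mrpl18 (0.48) in tetO-Msi1 cells. In C1 cells they were Mrpl13 (−1.32), Mrpl49 (−0.69), Mrps12 (1.04), Mrps11 (0.97) and Mrpl27 (0.95), and in C4 cells Mrpl51 (−0.70), Mrps21 (1.04) and Mrps18b (1.01). The median TE change was 0.06 in KH2, −0.17 in tetO-Msi1, 0.09 in C1 and 0.07 in C4 cells. With over 50 reads asked for, only 1 and 2 genes were left in KH2 and tetO-Msi1 cells, so those pairs say little about single genes.

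More of these genes passed between stages than with either treatment. In untreated KH2 and tetO-Msi1 cells, 28 of 73 genes were higher and 5 lower at E13.5 than at E12.5 (edgeR, adjusted p under 0.05), together 45.2% where 50.8% of 11893 genes changed, and the 28 are 38.4% where 25.6% of all genes were higher. The median log2 change was 0.20, against 0.01 over all genes. How far both values rested on the KH2 library of E13.5 was seen in the additive fit of all RNA-Seq libraries, treated ones included. That fit gave a median of 0.21, with 31 genes higher and 8 lower. Without the KH2 library of E13.5 it gave a median of 0.08, with 14 genes higher and 8 lower. Then 3200 of the 11893 genes were higher, so that the share of rises among these genes was below that of all genes. Of the 25 small subunit genes tested 12 rose and 0 fell (median 0.29), and of the 48 large subunit genes 16 rose and 5 fell (median 0.10). The 45 genes with a bacterial counterpart gave 19 rises and 3 falls, and the 28 others 9 and 2. E13.5 and E12.5 libraries also differ in the share of reads that gene counts make up, given above, and stage cannot be told apart from that difference. The labels name no sequencing run.

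The largest rise with stage was that of Mrps26, a small subunit protein specific to mitochondria, from 22.8 CPM in KH2 and 23.6 CPM in tetO-Msi1 cells to 63.9 and 45.1 CPM, so both E13.5 values lay above both E12.5 values. Its log2 change was 1.19 ± 0.15 (SE, edgeR adjusted p = 0.000127), or 2.27-fold. Mrps18b went from 2.17 and 2.33 CPM to 5.78 and 4.14 CPM (log2 1.08 ± 0.30, edgeR adjusted p = 0.0118), and its DESeq2 adjusted p was 0.0686. Mrpl55 rose by 0.95, Mrpl21 by 0.87 and Mrps28 by 0.82. At the other end Mrpl33, a small protein of the large subunit, went from 15.9 and 16.9 CPM to 10.4 and 8.82 CPM (log2 −0.80 ± 0.18, edgeR adjusted p = 0.00430). Mrpl30 fell by 0.59, Mrpl50 by 0.44, Mrpl45, which lines the exit tunnel and touches the inner membrane, by 0.40, and Mrpl13 by 0.37.

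Among other genes of mitochondrial gene expression, most that passed with stage were also higher at E13.5. Of 16 mitochondrial aminoacyl-tRNA synthetase genes 8 rose and 0 fell, with Ears2 at log2 1.97 and Tars2 at 1.07. Among 14 genes of mitochondrial DNA and its transcription 6 rose and 1 fell, including Polrmt, the mitochondrial RNA polymerase (0.86), Polg, the DNA polymerase (0.72), the coactivator Pprc1 (2.55) and Myc (1.46), and the one that fell was Gabpa (−0.39). Of 14 translation factors 4 rose (Lrpprc, Tsfm, Gfm1 and Gfm2) and Mtrf1 fell, of 20 assembly factors 5 rose and 1 fell, and of 7 other mitoribosomal proteins 3 rose (Ptcd3, Mrp63 and Aurkaip1). By contrast 10 of 47 cytosolic ribosomal protein genes rose and 25 fell (median −0.38), and 14 of 76 respiratory chain genes rose and 18 fell (median −0.09). The cytosolic rises included Rpl30 (log2 9.87) and Rpl3 (9.34), and the falls included Rpl35 (−2.21). What part the difference between E13.5 and E12.5 libraries in reads counted has in changes of this size was not tested. Sars2 rose by 0.64, whereas Mrps12, which starts beside it on the other strand, had a log2 change of 0.02 ± 0.13 (SE). Markers of cell types moved with stage as well. Of 4 astrocyte markers Gfap (log2 3.75) and Aqp4 (0.48) rose and Aldh1l1 fell (−0.33), and the sum of the 4 was 1386 to 1511 CPM at E12.5 and 1230 to 1285 CPM at E13.5. Of 4 neuron markers tested Snap25 rose (1.26), and the neuron sum went from 37.8 to 47.2 CPM up to 52.0 to 55.02 CPM without overlap. Of 6 neural stem markers Nes (1.19) and Msi1 (0.57) rose and Sox2 (−0.40), Hes5 (−0.35) and Vim (−0.33) fell. The part of these shifts in the values above was not tested.

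**Figure D3:**
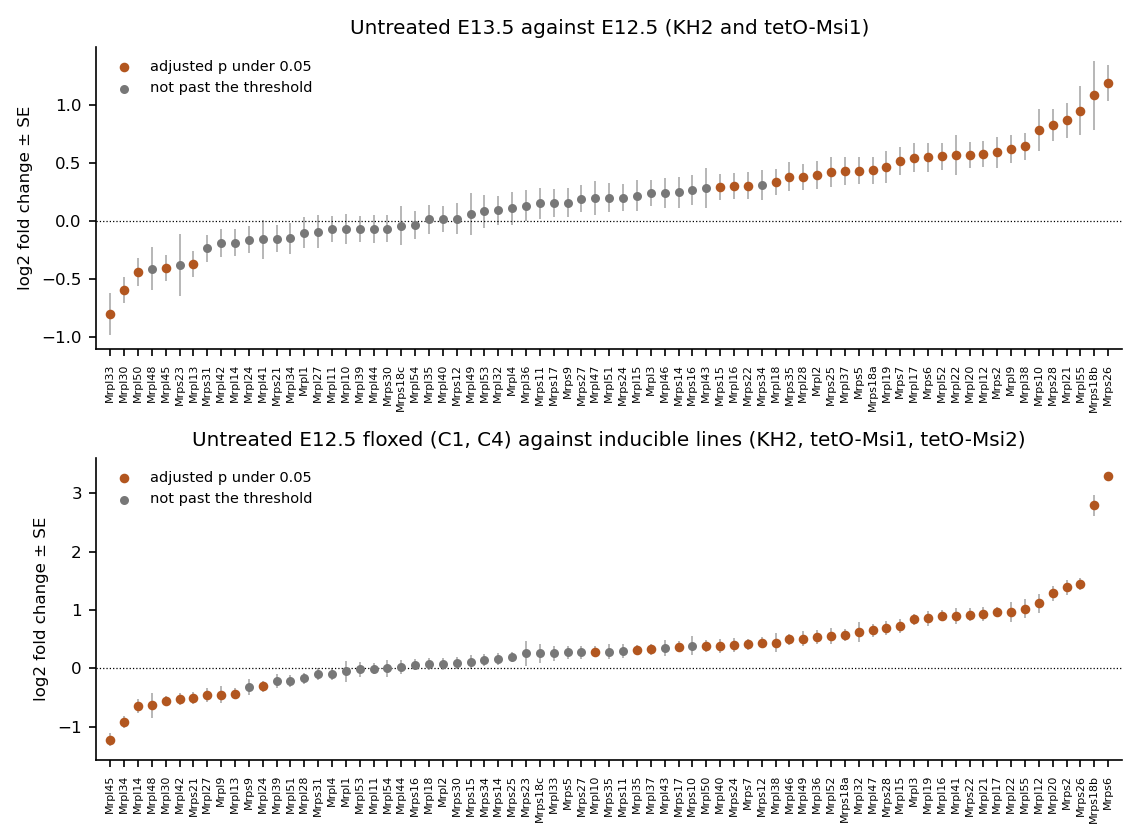
Log2 fold change ± SE from edgeR for each of the 73 tested genes, ordered by size, in untreated E13.5 against E12.5 cells (top) and in untreated floxed against inducible lines of E12.5 (bottom), with an adjusted p under 0.05 in orange. The top panel has 28 rises and 5 falls, from Mrps26 (1.19) to Mrpl33 (−0.80), and the bottom one has 34 rises and 11 falls, in which Mrps6 (3.29) and Mrps18b (2.80) stand apart from the rest.

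The most calls came between cell lines. In untreated E12.5 cells, 34 of 73 genes were higher and 11 lower in the floxed lines C1 and C4 than in the inducible lines KH2, tetO-Msi1 and tetO-Msi2, together 61.6% where 66.3% of 12211 genes changed, and the 34 are 46.6% where 33% of all genes were higher. The median log2 difference was 0.29, against 0.00 over all genes. Small subunit genes gave 10 rises and 1 fall of 25, and large subunit genes 24 and 10 of 48. Gene counts made up 15.0 to 15.6% of the reads behind RPKM in these inducible libraries and 32.1 to 32.7% in the floxed ones. Line type, experiment, culture time and that share go together in this comparison and cannot be told apart. Without the C4 library the median log2 difference was 0.31. The untreated E12.5 inducible libraries serve in both the stage and the line comparison, so the values of the 2 comparisons are given side by side and not as support for each other.

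Mrps6 gave the widest gap. Its mRNA was at 63.8 CPM in KH2, 61.2 CPM in tetO-Msi1 and 61.0 CPM in tetO-Msi2 cells, and at 598 and 617 CPM in C1 and C4 cells. This is a log2 difference of 3.29 ± 0.080 (SE, edgeR adjusted p = 6.49e-06), or 9.77-fold, and at E13.5 it was at 104 CPM in KH2 and 82.0 CPM in tetO-Msi1 cells. The gene took 1.77 to 1.97% of the reads of all 77 genes in the untreated E12.5 inducible libraries and 13.49 and 13.8% in the floxed ones. Footprints stood as far apart, at 38.0 CPM (40 reads) in KH2 and 35.6 CPM (102 reads) in tetO-Msi1 cells against 519 CPM (4651 reads) in C1 and 680 CPM (1751 reads) in C4 cells. Slc5a3, which lies within the Mrps6 gene on the same strand, had 2.27 and 3.14 RPKM of footprints in the untreated inducible lines and 105 and 27.3 RPKM in the floxed ones, and its part in the Mrps6 counts was not tested.

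Mrps18b came next, with mRNA at 2.17, 2.33 and 1.92 CPM in KH2, tetO-Msi1 and tetO-Msi2 cells and at 15.3 and 14.7 CPM in C1 and C4 cells (log2 2.80 ± 0.18 (SE), edgeR adjusted p = 4.98e-05, 6.95-fold). Its footprints were 3 and 5 reads in the inducible libraries and 205 and 34 reads in the floxed ones. The 2 other S18 homologues differed by less, at 0.57 ± 0.10 for Mrps18a (edgeR adjusted p = 0.00271) and 0.26 ± 0.17 for Mrps18c, which did not pass (adjusted p = 0.209 by edgeR). Mrps26 (log2 1.45), Mrps2 (1.39), Mrpl20 (1.29) and Mrpl12 (1.11) followed among the rises.

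**Figure D4:**
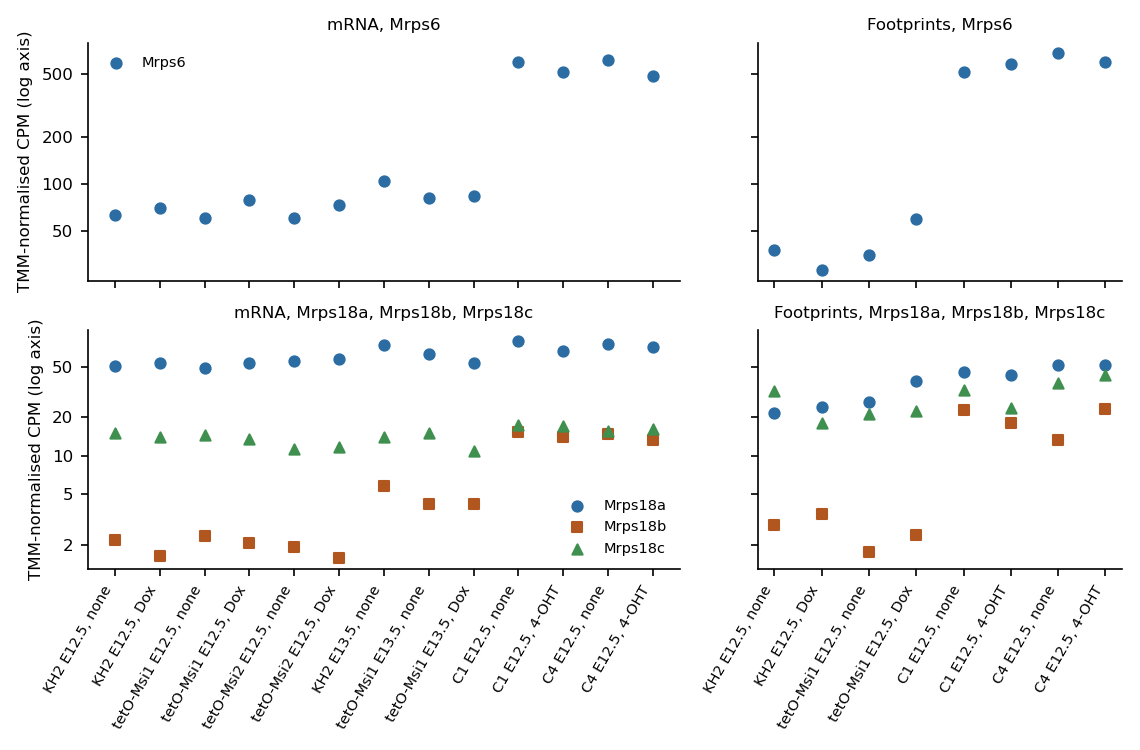
TMM-normalized CPM (log axes) of Mrps6 (top) and of Mrps18a, Mrps18b and Mrps18c (bottom) in every RNA-Seq library (left) and footprint library (right), with 1 point a library. Mrps6 mRNA sits at 61.0 to 104 CPM in all inducible libraries and at 488 to 617 CPM in the floxed ones, and Mrps18b is the only S18 homologue whose floxed values stand clear of all its inducible ones in both assays.

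Among the falls, Mrpl45 went from 112, 112 and 131 CPM in the inducible lines to 51.0 and 50.4 CPM in the floxed lines, a log2 difference of −1.22 ± 0.11 (SE, edgeR adjusted p = 0.000150) or 2.33-fold. Mrpl34, a small protein of the large subunit, was at 40.6 to 45.5 and 22.6 to 23.6 CPM (log2 −0.92). Mrpl14 (−0.64), Mrpl48 (−0.63) and Mrpl30 (−0.56) were the next, of which Mrpl48 lost its call when any library but that of tetO-Msi1 was left out. Footprints of Mrpl45 did not follow, at 3.7995 and 5.59 CPM in inducible and 9.26 and 13.2 CPM in floxed cells, though they were counted over 178 nt of coding exon and the mRNA over 601 nt.

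Both other lists of ribosome and respiratory chain genes went the other way in the floxed lines. Of 46 cytosolic ribosomal protein genes 3 rose and 31 fell (median −0.60), and of 75 respiratory chain genes 3 rose and 42 fell (median −0.31). Genes of mitochondrial DNA and transcription mostly rose, 9 of 14 against 1 fall (median 0.62), among them Pprc1 (3.93), Myc (3.27), Ppargc1b (2.57), Polg (1.06) and Tfam (0.58), and the one that fell was Ppargc1a (−2.18). The 14 translation factors were divided, with 5 rises (Gfm1 at 1.07 among them) and 5 falls, as were the 16 aminoacyl-tRNA synthetases with 6 rises (Ears2 at 2.69) and 4 falls (Fars2 at −1.46). Assembly factors gave 7 rises and 2 falls of 20, and other mitoribosomal proteins 2 rises (Ptcd3 at 1.77 and Mrp63 at 0.63) and 1 fall (Chchd1 at −0.24). Markers of cell types differed widely between the lines. The astrocyte genes Gfap (log2 6.40), S100b (2.78) and Aqp4 (1.99) were higher in the floxed lines, although the sum of the 4 astrocyte markers overlapped, at 855 to 1511 CPM in inducible and 1262 to 1404 CPM in floxed lines. Among neural stem markers Hes5 (−4.90) and Sox2 (−1.10) were lower and Nes (1.44) was higher. Of 5 neuron markers Stmn2 (2.90), Snap25 (2.56) and Dcx (1.23) were higher and Tubb3 (−0.55) lower, with sums of 37.8 to 51.0 and 40.9 to 49.4 CPM, and the endothelial marker Kdr was higher (1.35). What part these cells have in the values was not tested, and in bulk samples a change in the mix of cells and a change within cells cannot be told apart.

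The footprints of the same untreated lines, compared after the mRNA result was seen and with no test, were higher in both floxed than in both inducible libraries for 51 of 71 genes (71.8%), against 37.1% of all 8039 genes with over 5 reads in each of the 4. They were lower in both for 6 genes (8.45%), against 34.5% of all genes. The median log2 difference was 0.76, and 0.03 over all genes. Of 31 genes with higher mRNA, 28 had higher footprints in both floxed libraries and 0 had lower ones (median 1.10). Of 10 genes with lower mRNA, 3 had higher and 3 lower footprints (median 0.24), and of 30 with no mRNA call 20 and 3 (median 0.48). All genes were not split by mRNA call in this way, so these split counts are not read as particular to the genes of the mitochondrial ribosome. Several genes lay far from equal differences. Mrps10 had an mRNA difference of 0.39 and a footprint difference of −1.64, from 38.0 and 19.6 CPM in KH2 and tetO-Msi1 to 8.26 and 9.32 CPM in C1 and C4 cells. In the other direction Mrpl42 was at −0.53 in mRNA, which passed the test, and 1.43 in footprints, Mrpl1 at −0.05 and 1.61, and Mrpl30 at −0.56 and 0.84.

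**Figure D5:**
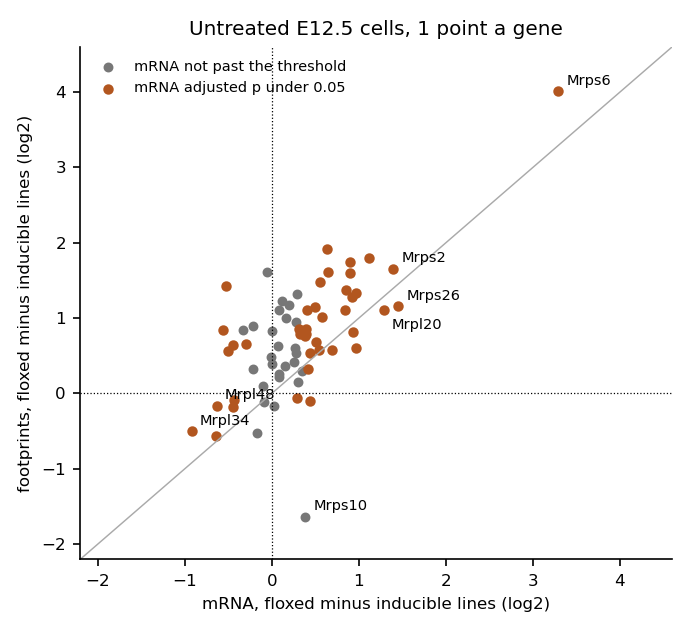
Log2 difference of floxed minus inducible lines in mRNA (horizontal) and in footprints (vertical) in untreated E12.5 cells, with 1 point a gene and the line of equal differences in grey. Most points lie above 0 on the vertical axis (median 0.76), Mrps6 is at 3.29 and 4.01, and Mrps10 is at 0.39 and −1.64.

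At E12.5 the order of the mRNA levels among these genes was nearly the same within each kind of line and less so between them. Over 73 genes, Pearson's r of log2 RPKM was 0.979 to 0.993 between the 4 floxed libraries and 0.948 to 0.988 between the 6 inducible libraries of E12.5. Between floxed and inducible libraries of E12.5 it was 0.615 to 0.713, and 0.650 to 0.723 without Mrps6 and Mrps18b. The E13.5 inducible libraries stood at 0.821 to 0.931 with the E12.5 inducible ones and at 0.732 to 0.780 with the floxed ones, so the order differed with stage too. The points of each r share a library and the genes are not independent, so these values are descriptions. Treated and untreated libraries of 1 line and stage lay within the first ranges.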

How the data were processed

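Polyadenylated RNA of 14 samples and ribosome-protected fragments of 8 were sequenced from mouse NSCs. Per the labels and the study's methods, the authors aligned reads to mm9 with TopHat and Bowtie, of which the versions are not given in the sources used here. The authors deposited, for each sample, a table with a read count and an RPKM value per gene, over coding exons for footprints. RPKM was scaled by the authors with a read number larger than the sum of the listed gene counts. Embryos per library were not stated, so replicates in the tests are lines or stages.

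The counts were tested with edgeR 4.0.16 (TMM, quasi-likelihood, genes with CPM of at least 1 in 2 libraries, Benjamini-Hochberg adjusted p under 0.05) in R 4.3.3, with the line or stage as a block in every fit but that between floxed and inducible lines, and TE as the interaction of assay and treatment. DESeq2 1.42.0 was an alternative, and the edgeR fits were tested on simulated data. With 1 to 3 residual degrees of freedom, these tests lean on the spread shared across genes. Changes within a pair are log2 ratios of RPKM (0.5 added for mRNA, mean RPKM of at least 1; more than 5 reads for TE) less the median of all genes, with 95% intervals from counting error only. All p-values are two-sided, and no library was left out.

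Genes were named by rule: those past a test (the 5 largest rises and falls where over 10 passed), the 3 largest rises and falls of each pair with at least 20 reads, the 5 highest and lowest levels, those meeting the study's TE limits, and 8 chosen for their roles. Genes with the lowest p of a test that gave no call were named after their values were seen. The members and the gene lists were chosen with earlier results of these data known.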

Additional observations from a re-analysis of the deposited data

Results flagged for a closer look

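The median mRNA change of these genes differed in sign or size between pairs of libraries under the same contrast, with 1 pair on each side, and none of these differences was tested. With Dox the median in tetO-Msi1 cells was −0.148 on the log2 scale at E13.5 relative to that at E12.5. At E12.5 the median in tetO-Msi1 cells less that in KH2 cells was 0.0379, and that in tetO-Msi2 cells less that in KH2 cells was 0.105. With 4-OHT the median of C4 less that of C1 cells was 0.0666. For TE with Dox, the median of tetO-Msi1 less that of KH2 cells was −0.228.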

How the results depend on the processing

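Across the alternatives run, 166 of 200 summary values stayed within the spread or within 1.5 times their main value and 34 moved, while of the single genes 187 values stayed on their side of the threshold with their direction and 12 fell short of it. None reversed. Calls with Dox across lines went from 0 to 1 (Mrpl20) with no filter on low counts, and leaving out 1 library in turn gave 0 to 1. Calls with 4-OHT went from 1 to 2 with no filter, to 0 without the line as a block and to 0 with all libraries in 1 fit, and were 0 to 0 with 1 library left out. Between stages, leaving out 1 library gave 22 to 38 calls and between lines 29 to 48, and the other tests gave 0 to 0. In every test but that between lines, fits with 1 library left out held all other libraries of the assays in the additive model. They therefore change the model as well as the libraries. The main fits were paired through the line or stage as a block, since replicate numbers name no shared source. Without that block the calls over all genes went from 430 to 0 for Dox in tetO-Msi1 cells, from 54 to 0 for Dox across lines and from 639 to 0 for 4-OHT, and between stages 26 of these genes were called. The additive fit gave 50, 52 and 127 calls over all genes in these 3 tests with no library left out. Leaving 1 library out of it gave 0 to 4 and 0 to 375 calls for the 2 Dox tests. Without the KH2 library of E13.5 the median change between stages was 0.08. Without centring on all genes, the median mRNA change in tetO-Msi1 cells of E13.5 was −0.064, and the median TE changes were 0.20 in KH2, −1.37 in C1 and −0.16 in C4 cells, with a difference of C4 minus C1 of 1.13. With over 20 reads the TE median was −0.015 in tetO-Msi1 cells, and with over 50 it was −0.19 in KH2 (1 gene) and 0.14 in tetO-Msi1 cells (2 genes). Treated libraries compared directly gave a TE difference of 0.018 for tetO-Msi1 minus KH2. Of the study's TE limits, a 2-fold one, not centred, gave 10 genes in KH2, 5 in tetO-Msi1, 67 in C1 and 4 in C4 cells. All 67 in C1 cells were lower, in a pair where all genes shifted by −1.46 on the log2 scale. The share of all genes at this 2-fold limit was not computed. At the study's own 3-fold limit, over 20 reads gave 0 in KH2, and centring gave 1 in tetO-Msi1 (Mrps22) and 0 in C1 cells. Scaling without the 10 leading genes moved the median mRNA levels to 117, 115, 137 and 138 RPKM and the footprint levels to 65.4, 61.6, 105 and 102 RPKM in untreated KH2, tetO-Msi1, C1 and C4 cells, since the total is then smaller. The cause of the other shifts was not tested. Depth limits the footprint and TE results, as do 1 library per condition and the 10 genes that held 77.6% of footprints in untreated KH2 cells.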
